A study of Mus musculus with 6 samples.

Results

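The miRNAs described are miR-23 and miR-27 of the paralogous a and b clusters, both arms of each hairpin: miR-23a, miR-27a, miR-23b and miR-27b, each with a 5p and a 3p mature product. They were chosen by name, which gave 8 of the 1966 miRNA rows of the count table, and all 8 passed the filter on low counts that left 354 rows for testing. The table holds read counts per mature miRNA from hearts of 6 male wild-type (WT) mice. Of these, 3 had transverse aortic constriction (TAC; animals 29, 78 and 81), a surgical narrowing of the aorta against which the left ventricle must pump, and 3 had sham surgery (animals 47, 68 and 69). Hearts were taken 8 weeks after the operation, each mouse gave 1 library, and no allele or agent was given to either group per the labels. Age is not given in the sources used here. The comparison asks whether these miRNAs differ in the heart under chronic pressure overload.

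In an a cluster and a b cluster, which arose by duplication, hairpins of miR-23 and miR-27 are transcribed together with one of miR-24. After Drosha and Dicer have cut the hairpins, 1 arm, here the 3p arm, is normally loaded into Argonaute as the guide that represses mRNAs pairing with its seed, and the other arm is mostly degraded. The clusters are abundant in vascular endothelium, where miR-23 and miR-27 act on angiogenic signalling, and they are also expressed in heart muscle. In rodent cardiomyocytes miR-23a acts downstream of the calcineurin target NFATc3 and represses the muscle ubiquitin ligase MuRF1, and miR-27 represses Pparg, a regulator of lipid metabolism.

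The a cluster lies on chromosome 8 of mm10 outside annotated host genes, with the 4 mature products within 221 bases. The b cluster lies on chromosome 13, with its 4 products within 289 bases. Its miR-23b products fall in an intron of the protein-coding gene 2010111I01Rik on the same strand, its miR-27b products overlap an annotated exon of that gene, and all 4 lie in an intron of Fancc on the opposite strand. The strand setting of the counting is not given, so reads of either strand cannot be told apart there. None of the 8 rows overlaps another miRNA row on the opposite strand by 10 bases or more. Mature sequences were found in RefSeq (GRCm38.p6) for 7 of the 8 rows, among 1675 of the 1966. They are shown 5′ to 3′ because the seed sets the targets and the few differing bases set how far reads of the paralogs can be told apart. Capitals mark the seed, bases 2 to 8.
miR-27a-3p: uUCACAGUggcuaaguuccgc
miR-27b-3p: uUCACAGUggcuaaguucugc
miR-23a-3p: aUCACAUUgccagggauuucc
miR-27a-5p: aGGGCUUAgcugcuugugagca
miR-27b-5p: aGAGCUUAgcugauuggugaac
miR-23a-5p: gGGGUUCCuggggaugggauuu
miR-23b-5p: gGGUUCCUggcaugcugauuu
miR-27a-3p (chr8:84208727-84208747, plus strand) and miR-27b-3p (chr13:63300760-63300780, plus strand) have the same seed, UCACAGU, and differ by 1 substitution over 21 bases, C19U, with positions counted from 1 at the 5′ end of miR-27a-3p. No other matched row of the table had that seed, and none shared the seed UCACAUU of miR-23a-3p, a comparison in which miR-23b-3p was not included. The 5p arms differ more. Compared position by position without gaps, miR-27a-5p and miR-27b-5p differ at 8 of 22 positions, of which G3A lies in the seed. An alignment that allows gaps was not made and could give fewer differences near the 3′ end. The miR-23 5p arms have the seeds GGGUUCC and GGUUCCU. miR-23b-3p (chr13:63300529-63300549, plus strand) is named only.

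In the hairpins of the miR-27 paralogs both mature arms, in capitals, face each other across the loop, and the reads of the 5p and 3p rows come from these stretches.
Mir27a hairpin: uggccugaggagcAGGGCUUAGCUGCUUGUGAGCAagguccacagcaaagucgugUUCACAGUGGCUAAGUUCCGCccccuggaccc
Mir27b hairpin: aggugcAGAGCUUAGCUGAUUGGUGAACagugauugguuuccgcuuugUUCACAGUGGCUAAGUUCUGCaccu

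Total counts ranged from 1226187 to 1795831 in TAC and from 1818725 to 3509001 in sham, so TAC libraries were the shallower ones. In the comparison of all tested miRNAs edgeR called 108 (30.5%) at an adjusted p under 0.05, with 68 higher and 40 lower (11.3%) in TAC, and 64 without TAC 81 or 69 without TAC 78. That split depended on how libraries were scaled. Against TMM factors, which took the median of all log2 fold changes to 0.07, RLE size factors gave 50 higher and 56 lower (median -0.00), upper quartile factors 41 and 63 (-0.08), library totals 25 and 102 (-0.23), and totals that leave out the 5 most abundant miRNAs 43 and 72 (-0.09). DESeq2 gave 58 higher and 53 lower, counts divided by the places of a row 51 and 52, summing the paralogous 3p rows 48 and 52, and no low-count filter 42 and 65. The third hairpin of each cluster could not be read: miR-24-3p, miR-24-1-5p and miR-24-2-5p had counts of 0 throughout. As all of them overlap rows of the other strand, a 0 there is not read as absence.

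With TMM scaling 0 of the 8 miRNAs were called in TAC against sham, against 30.5% of all tested rows. By an unadjusted p under 0.05, 1 of 8 passed, against 44.4% of all tested rows. Their log2 fold changes were negative in 7 of 8, with a median of -0.19, beside 45.5% negative and a median of 0.07 over all rows tested. The groups did not overlap for 2 of 8, miR-27a-3p and miR-27b-3p, both lower in TAC, where 22% of all tested rows were lower and 51.4% differed in either direction without overlap. The plot of levels by heart shows the 3p arms far above the 5p arms in every library.

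**Figure D1:**
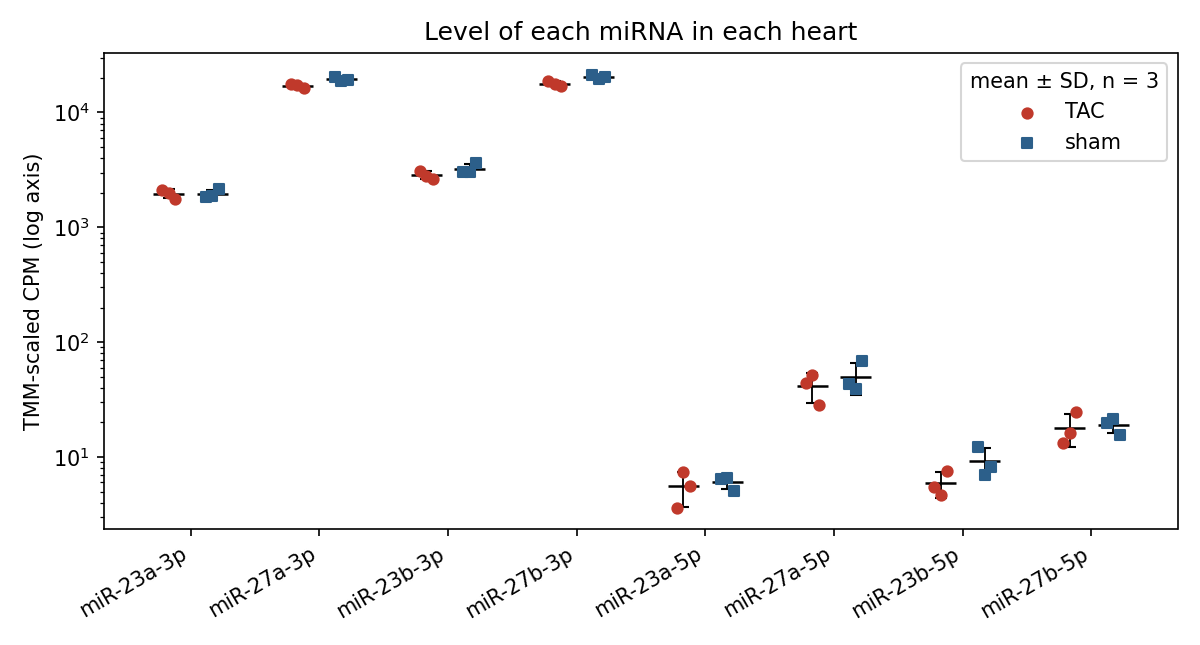
TMM-scaled counts per 1000000 (CPM, log axis) of the 8 miRNAs in each heart, with TAC as circles and sham as squares; bars are the mean ± SD of 3 mice. The miR-27 3p rows lie between 16239.9 and 21343 CPM, and only for them do the TAC hearts all lie below the sham hearts.

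The guide arm miR-27b-3p was the most abundant of the 8, at rank 15 of all rows by CPM per base of the row. It had 18646 CPM in TAC 29, 17871 in TAC 78 and 17001 in TAC 81, against 21343 CPM in sham 47, 19507 in sham 68 and 20321 in sham 69. Every TAC heart was below every sham heart. The means were 17839 ± 823 CPM in TAC and 20390.3 ± 920.2 CPM in sham (SD, n = 3 mice each), a fold of 0.875 (TAC over sham). The log2 fold change was -0.19 ± 0.08 (SE; 95% interval -0.38 to -0.00), and edgeR's quasi-likelihood test gave an adjusted p = 0.111. miR-27a-3p, the a-cluster guide with the same seed, had 17808, 17187 and 16239.9 CPM in TAC 29, 78 and 81, against 20389, 18625 and 19352 CPM in sham 47, 68 and 69. Its groups also did not overlap. Its log2 fold change was -0.19 ± 0.08 (95% interval -0.38 to 0.00; edgeR adjusted p = 0.117). Without sham 47 the log2 fold changes were -0.13 for miR-27b-3p and -0.12 for miR-27a-3p.

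These may not be 2 independent measurements. The count of miR-27b-3p divided by that of miR-27a-3p was 1.05, 1.04 and 1.05 in TAC 29, 78 and 81, against 1.05, 1.05 and 1.05 in sham 47, 68 and 69. On the log2 scale this ratio varied over the 6 libraries with an SD of 0.0048, while counting error alone, for separate reads, gives an SD of 0.011. How reads with several places were counted is not given in the sources used here, and whether the rows share reads was not tested. The 2 rows are therefore not read as separate evidence on the a product and the b product.

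The miR-23 guide arms were lower in abundance, at rank 37 for miR-23b-3p and 47 for miR-23a-3p by CPM per base. miR-23b-3p had 3117 CPM in TAC 29, 2785 in TAC 78 and 2646 in TAC 81, against 3049 CPM in sham 47, 3054 in sham 68 and 3626 in sham 69. TAC 29 lay above sham 47 and sham 68, so the groups overlapped. The log2 fold change was -0.19 ± 0.10 (95% interval -0.42 to 0.04; edgeR adjusted p = 0.187), and it was -0.11 without sham 69. miR-23a-3p, the guide described downstream of NFATc3, had 2126, 2002 and 1779 CPM in TAC 29, 78 and 81, against 1851, 1866 and 2152 CPM in sham 47, 68 and 69. Its groups overlapped over most of their range, with means of 1969 ± 176 CPM in TAC and 1956 ± 169 CPM in sham (SD, n = 3 each). Its log2 fold change was 0.01 ± 0.10 (95% interval -0.22 to 0.24; edgeR adjusted p = 0.947), and its sign turned negative with each of the other 4 scalings.

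**Figure D2:**
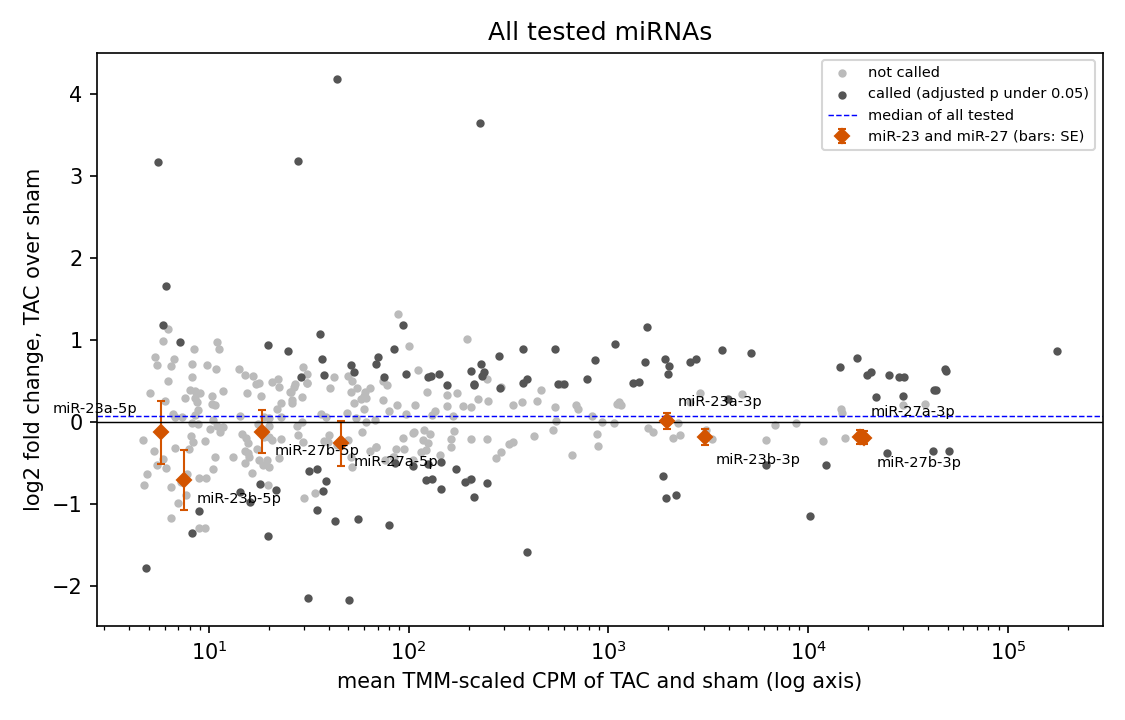
Log2 fold change (TAC over sham) of every tested miRNA against its mean TMM-scaled CPM (log axis); diamonds with SE bars are miR-23 and miR-27, dark points are called at an adjusted p under 0.05, and the dashed line is the median of all, 0.07. The 3p diamonds lie between -0.19 and 0.01 and none of the 8 is called.

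The b over a ratio separated the groups for the miR-23 guides. miR-23b-3p counts divided by miR-23a-3p counts gave 1.47 in TAC 29, 1.39 in TAC 78 and 1.49 in TAC 81, against 1.65 in sham 47, 1.64 in sham 68 and 1.69 in sham 69. All TAC hearts were below all sham hearts, with means of 1.45 ± 0.05 in TAC and 1.66 ± 0.03 in sham (SD, n = 3 each). As a ratio of counts within a library, it does not depend on the scaling. The difference of log2 ratios, TAC minus sham, was -0.19, against an SD within groups of 0.039 and an SD of 0.031 from counting error alone. The two-sided exact permutation p was 0.1, the smallest that 3 against 3 allows, and 0.4 after Benjamini-Hochberg adjustment over the 4 paralog ratios. Leaving out any 1 library kept the difference between -0.21 and -0.17. Unlike that of the miR-27 guides, this ratio varied more than counting error over the libraries (SD 0.112). How many reads the miR-23 3p rows share was not measured.

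**Figure D3:**
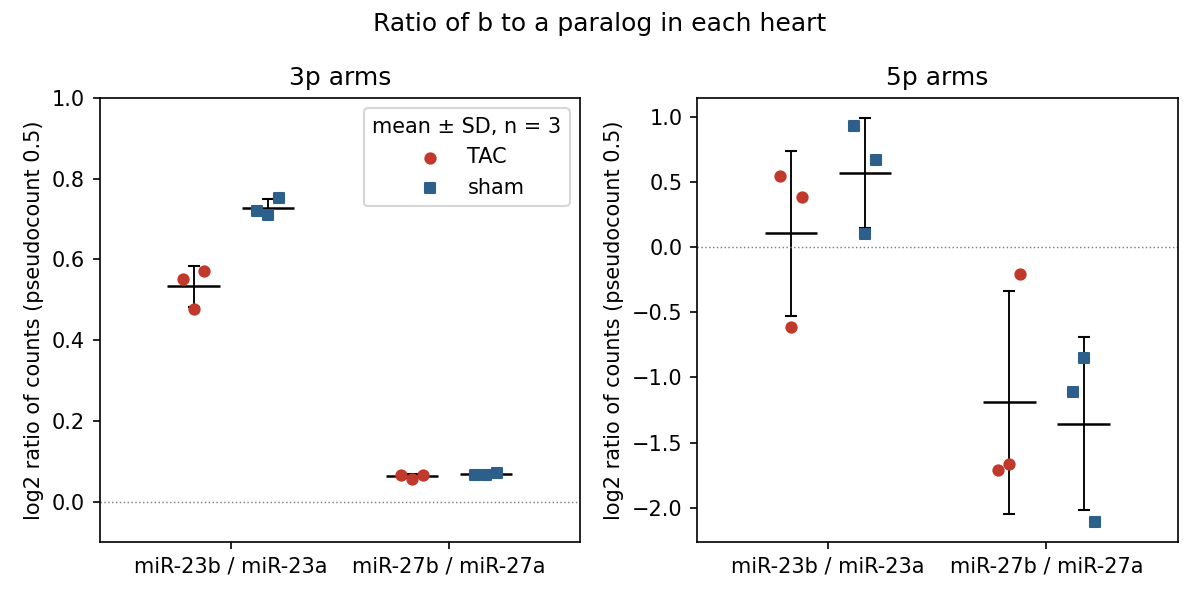
Log2 ratio of b-cluster to a-cluster counts (pseudocount 0.5) in each heart for the 3p arms (left) and the 5p arms (right), with TAC as circles and sham as squares; bars are the mean ± SD of 3 mice. The miR-23 3p ratio lies between 0.48 and 0.57 in TAC and between 0.71 and 0.75 in sham, the miR-27 3p ratio hardly varies, and the 5p ratios overlap.

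The 5p arms, the strands mostly discarded, tell the clusters apart by sequence better but were sparse. miR-27a-5p had 73, 77 and 30 counts in TAC 29, 78 and 81, against 169, 78 and 174 counts in sham 47, 68 and 69. Scaled, it had 44.2, 51.8 and 28.2 CPM in TAC, against 43.2, 39.2 and 68.2 CPM in sham, in the same order, and the groups overlapped. miR-27b-5p had 22, 24 and 26 counts in TAC, against 78, 43 and 40 counts in sham, which is 13.3 to 24.4 CPM in TAC and 15.7 to 21.6 CPM in sham. TAC 81 was the lowest heart for miR-27a-5p and the highest for miR-27b-5p. The log2 fold changes were -0.26 ± 0.27 for miR-27a-5p and -0.12 ± 0.26 for miR-27b-5p (edgeR adjusted p = 0.474 and 0.729).

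Of the miR-23 5p arms, miR-23b-5p had 9, 7 and 8 counts in TAC 29, 78 and 81, against 48, 14 and 21 counts in sham 47, 68 and 69. Scaled, this was 5.45, 4.70 and 7.52 CPM in TAC, against 12.3, 7.03 and 8.23 CPM in sham, and TAC 81 alone overlapped the sham hearts. Its log2 fold change of -0.71 ± 0.37 was the furthest from 0 of the 8, with a 95% interval of -1.54 to 0.12 and an edgeR adjusted p = 0.166, and it was -0.39 without sham 47. miR-23a-5p had 6, 11 and 6 counts in TAC, against 25, 13 and 13 counts in sham, which is 3.63 to 7.39 CPM in TAC and 5.09 to 6.53 CPM in sham. Its log2 fold change was -0.13 ± 0.38 (edgeR adjusted p = 0.810). At these depths 3 counts are worth between 1.82 and 2.82 CPM in TAC and between 0.767 and 1.51 CPM in sham, and the standard errors of the 5p arms, 0.26 to 0.38, exceed the fold changes of the guide arms. Differences of that size lay within the error of the 5p arms.

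Arm use was heavily on the 3p side in both groups. For every 1000 counts of the 3p row, the 5p row of miR-27a had 2.41 ± 0.64 counts in TAC and 2.58 ± 0.81 in sham, and that of miR-27b had 1.02 ± 0.38 in TAC and 0.938 ± 0.168 in sham (SD, n = 3 each). For miR-23a the values were 2.86 ± 1.03 in TAC and 3.11 ± 0.64 in sham, and for miR-23b they were 2.09 ± 0.65 in TAC and 2.87 ± 1.01 in sham. The groups overlapped for all 4 hairpins. Differences of the log2 ratio, TAC minus sham, were -0.12 for miR-23a, -0.39 for miR-23b, -0.08 for miR-27a and 0.09 for miR-27b. The exact two-sided permutation p-values were 0.8, 0.4, 0.9 and 0.9, and each was 0.9 after adjustment over the 4 hairpins. The miR-23b difference was -0.12 without sham 47 and -0.63 without TAC 81. The denominators of the miR-27 hairpins kept the nearly constant ratio given above.

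The 5p arms of the b cluster summed to 0.392, 0.352 and 0.944 times those of the a cluster in TAC 29, 78 and 81, against 0.649, 0.626 and 0.326 times in sham 47, 68 and 69. The a-cluster 5p counts were thus the larger in every heart, and the groups overlapped (log2 difference -0.00, exact two-sided permutation p = 1). For the separate hairpins, the b over a ratio of the 5p rows was 0.493 ± 0.323 in TAC and 0.414 ± 0.166 in sham for miR-27, and 1.16 ± 0.46 in TAC and 1.54 ± 0.43 in sham for miR-23 (SD, n = 3 each). Their exact two-sided permutation p-values were 0.8 and 0.4, and 0.8 and 0.533 after adjustment over the 4 paralog ratios.

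Whether the miR-27 guides passed the test depended on the scaling. Under RLE size factors both were called lower in TAC, at log2 fold changes of -0.26 for miR-27a-3p and -0.27 for miR-27b-3p (edgeR adjusted p = 0.0466 and 0.0455), where 15.8% of all rows were called lower. Upper quartile factors also gave 2 members lower (17.8% of all rows), and DESeq2 2 (15%). Totals without the 5 most abundant miRNAs gave 3 (20.3%), and library totals 3 (28.8%), the third being miR-23b-3p. With library totals the log2 fold changes were -0.50 for miR-27a-3p, -0.50 for miR-27b-3p and -0.49 for miR-23b-3p (edgeR adjusted p = 0.00454, 0.00454 and 0.00957). miR-23a-3p was not called under any of these settings. No low-count filter also gave 2 lower calls, the miR-27 guides (5.91% of all rows).

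Set against the median of all tested rows under the same scaling, the values hardly moved. That follows from the calculation, as a scaling shifts all rows nearly alike, and is not evidence on these miRNAs. Relative to that median and over the 5 scalings, miR-27a-3p lay at -0.26, miR-27b-3p between -0.27 and -0.26, miR-23b-3p at -0.26 and miR-23a-3p at -0.06. The fold change was negative under all 17 alternatives for miR-27a-3p, miR-27b-3p, miR-23b-3p and miR-23b-5p. The alternatives reuse the same 6 libraries, and the other scalings shift nearly all rows down together, so these signs are not independent evidence. With paralogs summed, miR-27a-3p and miR-27b-3p shared the same value, -0.28. There miR-23b-3p had the value of its sum with miR-23a-3p, -0.20. TMM factors were computed anew in that fit, and the median of all tested rows was -0.02, against 0.07 with the rows kept apart. These values are therefore not set beside those of the separate rows as an effect of summing. Relative to the median of that fit, the summed miR-27 row was at -0.26 and the summed miR-23 row at -0.18. The miR-27 guides were called in 6 of these 17 and miR-23b-3p in 2.

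**Figure D4:**
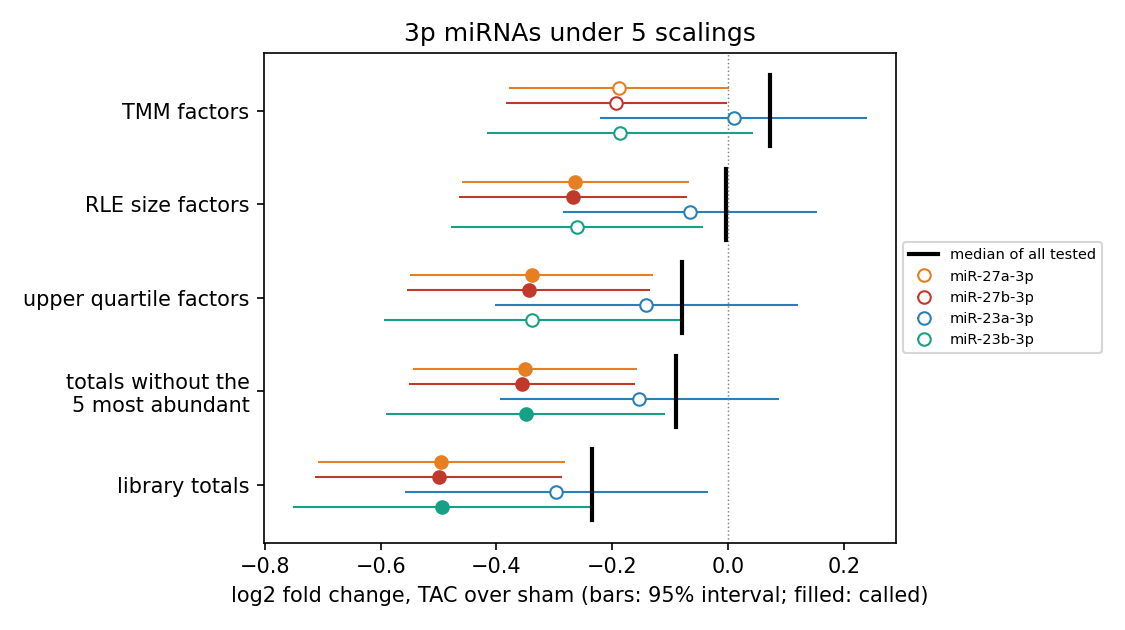
Log2 fold change (TAC over sham) of the 3p miRNAs under 5 ways of scaling the libraries, with 95% intervals; filled points are called at an adjusted p under 0.05 and thick black lines are the median of all tested miRNAs under that scaling. The points move together with the median, as a scaling shifts all rows nearly alike, from 0.07 with TMM factors to -0.23 with library totals. The miR-27 guides are called in 4 of the 5.

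The 8 rows together held 3.84%, 3.62% and 3.27% of the library total in TAC 29, 78 and 81, against 5.20%, 4.72% and 5.14% in sham 47, 68 and 69. All TAC hearts were below all sham hearts, with means of 3.58% ± 0.29 in TAC and 5.02% ± 0.26 in sham (SD, n = 3 each). The Wilson 95% interval of each share was at most 0.063 percentage points wide and covers counting error only. Whether reads were counted in both rows of a paralog pair, and so more than once in these shares, was not tested. With the larger row of each 3p pair only, they were 1.87% ± 0.15 in TAC and 2.64% ± 0.14 in sham. A share is not on the TMM level: with TMM effective library sizes as the denominator the difference shrank to -0.53 percentage points, beside -1.44 with library totals.

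Markers of cell types were followed in the same libraries, where 19.2% of all tested rows were called higher and 11.3% lower. The heart muscle miRNAs miR-1a-3p, miR-133a-3p, miR-133b-3p, miR-208a-3p, miR-208b-3p and miR-499-5p took 27.1% to 30.7% of counts in TAC and 18.6% to 21.8% in sham, and 5 of 6 were called higher, or 2 of 6 with library totals. The mesenchymal miRNAs miR-21a-5p, miR-199a-5p and miR-214-3p took 0.640% to 0.874% in TAC and 1.71% to 2.22% in sham, and 3 of 3 were called lower with each of the 5 scalings. The defining endothelial miRNA miR-126a-3p and its other arm had counts of 0 throughout but overlap rows of the other strand. miR-126b-3p, which overlaps one too, had 6.79 ± 1.22 CPM in TAC and 6.70 ± 0.95 CPM in sham (SD, n = 3 each), with a log2 fold change of 0.06 ± 0.33 that was negative with each of the other 4 scalings. It was not called with any of them, and with these rows the endothelium, where these clusters are abundant, could not be followed. Of 4 smooth muscle miRNAs, 3 were called higher, or 2 with 3 of the other 4 scalings (5.30% to 5.68% of counts in TAC, 3.91% to 4.82% in sham). Of 4 tested leukocyte miRNAs 1 was higher (0.0304% to 0.0318% in TAC, 0.0237% to 0.0260% in sham), and of 3 tested red blood cell miRNAs 1 was higher (0.149% to 0.266% in TAC, 0.111% to 0.128% in sham). A further leukocyte miRNA, miR-142a-3p, and a further red blood cell miRNA, miR-486a-5p, had counts of 0 in every library, the cause of which was not tested. The liver miRNA miR-122-5p, over a row of the other strand as well, was at 0. The part of these in the shares and levels of miR-23 and miR-27 was not tested, and in whole hearts fewer cells of a type and less RNA per cell cannot be told apart.

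Among 20 miRNAs known from blood vessel growth, the process in which the clusters are best known, 19 were in the table and 16 were tested: 5 were called higher in TAC, 1 lower and 10 did not pass. Of all tested rows 19.2% were called higher and 11.3% lower. Their median log2 fold change was 0.33, beside 0.07 over all tested rows. miR-210-3p, induced by low oxygen, was lower (-0.73 ± 0.17; edgeR adjusted p = 0.0133). miR-378a-3p (0.55 ± 0.10), miR-19b-3p (1.07 ± 0.21), miR-20a-5p (0.56 ± 0.18), miR-16-5p (0.52 ± 0.12) and let-7f-5p (0.30 ± 0.09) were higher. miR-221-3p and miR-222-3p, which act on endothelial migration, were at -0.40 ± 0.22 and -0.71 ± 0.26 and not called (edgeR adjusted p = 0.188 and 0.0632). The other rows that did not pass went both ways. miR-17-5p (0.50 ± 0.17), miR-15a-5p (0.55 ± 0.23), miR-130a-3p (0.47 ± 0.24) and miR-19a-3p (0.35 ± 0.33) were positive. miR-132-3p (-0.23 ± 0.19), miR-296-5p (-0.43 ± 0.27), miR-503-5p (-0.19 ± 0.25) and miR-92a-3p (-0.01 ± 0.11) were negative. The calls depended on the scaling. Of the miRNAs just named, only let-7f-5p changed sign, with library totals. With library totals, where 7.06% of all rows were called higher and 28.8% lower, 1 of the 16 was called higher and 5 lower, with a median of 0.02 beside -0.23 over all rows. There let-7f-5p was at -0.00, miR-16-5p at 0.21, miR-20a-5p at 0.24 and miR-378a-3p at 0.24, none of them called, while miR-19b-3p (0.76) was higher. Called lower there were miR-210-3p (-1.04), miR-222-3p (-1.01), miR-296-5p (-0.74), miR-221-3p (-0.70) and miR-92a-3p (-0.32). RLE size factors, upper quartile factors and totals without the 5 most abundant miRNAs each gave 3 higher and 2 lower. Of all 354 rows these scalings called 50, 41 and 43 higher and 56, 63 and 72 lower, in that order. No statement particular to this list is made.

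Over the 6 libraries of TAC and sham, the miRNAs most like the miR-27 guides in log2 CPM, among 147 rows with a mean of at least 100 CPM, were miR-195a-3p, miR-339-3p and miR-99b-3p. Pearson's r with miR-27b-3p was 0.95, 0.94 and 0.92. Of these, miR-195a-3p averaged 93.0 ± 9.4 CPM in TAC and 152 ± 22 CPM in sham and miR-99b-3p averaged 158 ± 10 CPM in TAC and 255 ± 3 CPM in sham (SD, n = 3 each), and both were called lower in TAC (edgeR adjusted p = 0.0125 and 0.00439). miR-339-3p averaged 115 ± 4.6 CPM in TAC and 123 ± 6.4 CPM in sham (SD, n = 3 each) and was not called (log2 fold change -0.10, edgeR adjusted p = 0.564). The closest rows to miR-23b-3p were miR-501-3p, miR-490-3p and miR-222-3p (r = 0.88, 0.87 and 0.86), and to miR-23a-3p miR-381-3p, miR-652-3p and miR-326-3p (r = 0.81, 0.80 and 0.79). These values describe 6 libraries that share the group difference and the scaling.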

How the data were processed

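The authors deposited 1 table of raw read counts per mature miRNA, with 1 column per mouse and the mm10 place or places of each row. The submitters' processing notes name HISAT2, StringTie and DESeq2, without roles or versions. The counter, adapter trimming, strand setting and handling of reads with several places are not stated there or in the labels. Columns were matched to mice by animal number, and 0 columns were left over.

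TAC was compared with sham on all rows with edgeR 4.0.16 in R 4.3.3 (quasi-likelihood F-test, TMM, filterByExpr, Benjamini-Hochberg). "Called" means an adjusted p under 0.05. CPM are TMM-scaled. SE is the size of the log2 fold change over the root of F. Ratios used a pseudocount of 0.5 and exact permutation tests (scipy 1.17.1). DESeq2 1.42.0 and limma 3.58.1 served as alternatives. The pipeline was tested on simulated data with equal numbers of rises and falls, which cannot show which scaling is right for these libraries. Annotation came from GENCODE M21 (same assembly). Members, lists and tests were chosen with earlier results of these data known. Named are the members, miR-24, the marker and vessel lists and, for each 3p member, the 3 most correlated rows of at least 100 CPM. The 27-over-23 ratios and the counts of the lists under other scalings were added after the values were seen.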

Additional observations from a re-analysis of the deposited data

How the results depend on the processing

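No paired analysis was possible because the animal numbers are not shared between the groups. The number of miRNAs called was 108, between 64 and 83 with 1 library left out, and within 1.5 times of 108 in all other settings. The number of the 8 called was 0 with TMM, with 1 library left out (0 to 0), and with limma-voom, robust quasi-likelihood, the filter of 10 counts in 3 libraries, counts divided by places and summed paralogs. It was 2 with RLE size factors, 3 with library totals, 2 with upper quartile factors, 3 without the 5 most abundant miRNAs, 2 with DESeq2 and 2 with no low-count filter, all lower in TAC. DESeq2 gave no adjusted p for miR-23a-5p and miR-23b-5p. The log2 fold change of miR-23a-3p, 0.01 with TMM, reversed to -0.065 with RLE size factors, -0.30 with library totals, -0.14 with upper quartile factors, -0.15 without the 5 most abundant miRNAs, -0.065 with DESeq2, -0.15 with no filter, -0.042 with counts divided by places and -0.20 for the summed miR-23 3p row. In the fit with summed rows the median of all tested rows was -0.02, against 0.07 with the rows kept apart. With 1 library left out the log2 fold change of miR-23a-3p ranged from -0.051 to 0.076. That of miR-23a-5p ranged from -0.43 to 0.13, that of miR-27a-5p from -0.45 to 0.0014 and that of miR-27b-5p from -0.38 to 0.058. The differences of log2 arm ratios ranged from -0.33 to 0.21 for miR-23a, -0.26 to 0.16 for miR-27a and -0.19 to 0.31 for miR-27b, and reversed without TAC 29 for the first and without TAC 81 or sham 69 for the others. The miR-27 5p paralog ratio ranged from -0.33 to 0.42, reversing without TAC 81 or sham 69. The 5p cluster ratio ranged from -0.45 to 0.26, reversing without TAC 29, TAC 78, sham 47 or sham 68, and was 0.0023 with a pseudocount of 1. The log2 ratio of miR-27b-3p over miR-23b-3p ranged from -0.093 to 0.068, reversing without TAC 29, sham 47 or sham 68. The miR-23 3p paralog ratio kept its sign in every setting run. The summed share moved from -1.44 to -0.53 percentage points with TMM effective sizes and lay between -1.59 and -1.29 with 1 library left out. The cause of these shifts was not tested. With 1 library left out, the smallest exact p is 0.2, against 0.1 with all, so no ratio could pass in any setting.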

Other observations

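Within a cluster the hairpins are cut from 1 primary transcript, and the ratio of their guides can be followed in each heart. miR-27a-3p counts divided by miR-23a-3p counts gave 8.38, 8.58 and 9.13 in TAC 29, 78 and 81, against 11.01, 9.98 and 8.99 in sham 47, 68 and 69. TAC 81 lay above sham 69, so the groups overlapped. miR-27b-3p over miR-23b-3p gave 5.98, 6.42 and 6.43 in TAC, against 6.999, 6.39 and 5.60 in sham, in the same order. The difference of log2 ratios, TAC minus sham, was -0.20 for the a cluster (-0.27 to -0.12 with 1 library left out) and -0.01 for the b cluster (-0.09 to 0.07). The miR-27b-3p over miR-27a-3p ratio hardly varied, so the 2 values differ by about the log2 difference of the miR-23 3p paralog ratio, -0.19. As the miR-27 rows may share reads, the 2 ratios are not read as separate values of the a cluster and the b cluster. These ratios were chosen after the values were seen and were not tested.

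Of the rows opposite miR-24, miR-3074-1-3p, which overlaps miR-24-1-5p on the b cluster, had 227, 162 and 131 counts in TAC 29, 78 and 81, against 650, 293 and 447 counts in sham 47, 68 and 69. Scaled, it averaged 123 ± 14 CPM in TAC and 163 ± 14 CPM in sham (SD, n = 3 each), a log2 fold change of -0.40 ± 0.15 (edgeR adjusted p = 0.0698), and -0.71 with library totals. miR-3074-5p and miR-3074-2-3p were at 0 in every library. Without a stated strand setting the counts of miR-3074-1-3p cannot be told apart from reads of miR-24-1-5p.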
